A study of Rattus norvegicus with 12 samples.

Results

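The sarcomere genes described here encode the myosin thick filament, the actin thin filament with tropomyosin and troponin, the Z disc, the M band, titin and nebulin, and proteins that assemble or protect these structures. They are 56 rat genes listed by symbol. A probe was taken as a member when its RefSeq accession, without the version, belongs to a listed symbol. Of the 56 genes, 47 had a probe and 43 had one bright enough to be tested, out of 16581 genes named on the arrays and 10741 named and tested. Of these 43, 41 were well above background on all 12 arrays. The exceptions were *Myl3*, which was below that mark on every GR24 array, and *Mylk2*, which was below it on some control and GR24 arrays.

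L6 is a line of rat skeletal myoblasts that fuse into myotubes in culture, and all samples came from this 1 line. After 6 days of differentiation by the labels, for which the methods of the study give a different length, myotubes received 60 µM of GR24, pinosylvin or resveratrol for 24 h, or the solvent DMSO alone as control. Each group has 3 arrays, 1 from each of 3 experiments, and the DMSO control arrays serve all 3 comparisons with control. GR24 is a synthetic strigolactone analog, while pinosylvin and resveratrol are plant stilbenes that differ by an additional hydroxyl group on resveratrol.

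On each of the 12 arrays, between 58.0% and 64.3% of 58717 spots stood well above background by the scanner's mark, and 0 were saturated. A probe without that mark is said to be at background. Values below are log2 signals relative to the 75th percentile of the same array, so that 0 is the level of a fairly bright probe. Signal also depends on the probe, so results rest on differences between groups, and a probe called the brightest of a list is so in signal and not in amount of RNA. A gene is called higher or lower where limma gave an adjusted p under 0.05 over all 24279 tested probes. The number of arrays limits the precision.

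A sarcomere is the repeating contractile unit of striated muscle, in which myosin heads of the thick filament pull on actin of the thin filament when calcium binds troponin. Z discs anchor the thin filaments, and the M band holds the thick filaments together. Myotubes in culture switch on embryonic and neonatal myosins and cardiac-type isoforms of actin and troponin before adult isoforms, as developing muscle does.

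The markers of myotubes were present. Of 8, 7 had a probe and all 7 were tested and well above background on the 3 control arrays, the brightest probe being that of *Myh3*, the embryonic myosin heavy chain. *Mymk*, a fusion gene, has no named probe. Among markers of cells that a muscle culture could also hold, *Adipoq* and *Cidec* of adipocytes and *Nppa* and *Nkx2-5* of cardiomyocytes were at background on every array. *Tnni3* and *Nppb*, also on the cardiomyocyte list, were well above background on the 3 control arrays, as were all 6 fibroblast markers. *Myl7* and *Ryr2*, the rest of that list, were not at background on every array but were not tested. Of 4 endothelial markers, 0 were at background on every array, and 2 were tested.

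GR24 lowered most of the measured sarcomere genes, in every role that could be tested. Of the 43 tested members, 38 were lower than in control, against 25.5% of all tested probes, and 1 was higher, against 31.5% of all tested probes. The members' log2 fold changes had a median of -1.67 and ran from -4.30 to 0.69, while the median over all tested probes was 0.03. Within slide 1, which holds replicates 1 and 2 of every group, the members' median was -1.70, and within slide 2, with replicate 3, it was -1.57. In RNA of whole cultures, fewer differentiated cells and less RNA per cell cannot be told apart. All 38 lower calls and the 1 higher call were kept in each of 27 alternative analyses that tested the gene, and the filter on all 12 arrays, which leaves out *Myl3*, gave 37 of 41. With no filter 39 of 47 were lower. The count of higher members was 2 with the experiment or the slide as a block, with the percentile taken over spots, and without control replicate 2.

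Pinosylvin moved fewer members, in both directions. It lowered 5 of the 43, against 8.27% of all tested probes, and raised 11, against 8.28% of all tested probes, with a median log2 fold change of 0.11 beside 0.05 over all tested probes. The median was 0.09 within slide 1 and 0.13 within slide 2. In all 27 alternatives, 2 of the 5 decreases were kept, *Myh1* and *Myh8*, and 5 of the 11 increases, *Tnnt3*, *Lmod2*, *Pdlim3*, *Csrp3* and *Ankrd2*. The other increases were lost in 1 alternative (*Myh6* and *Myh7*), 8 (*Mybpc1*), 10 (*Myot*), 11 (*Ankrd1*) or 17 (*Tnnc2*). The decreases numbered 2 without control replicate 1, 3 without control replicate 2 or any 1 pinosylvin array, and 3 with no filter on dim probes or in a fit of 6 arrays. The increases numbered 7 without control replicate 3, without pinosylvin replicate 2 or with no filter, and 6 in the fit of 6 arrays. With the experiment as a block 7 were lower and 16 higher, against 12.3% and 16.3% of all tested probes in that fit, the added ones being *Actc1* and *Klhl40* (lower) and *Tnni1*, *Tnnt1*, *Tcap*, *Des* and *Klhl41* (higher).

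Resveratrol lowered members and raised none. Here 22 of the 43 were lower, against 8.99% of all tested probes, and the median log2 fold change was -0.30 beside 0.01 over all tested probes. The median was -0.36 within slide 1 and -0.24 within slide 2. By limma 0 were higher, against 7.99% of all tested probes, also 0 at an unadjusted p under 0.05. With the experiment or slide as a block 1 was higher, *Myot*, at an adjusted p of 0.0221 with the experiment as a block. In all 27 alternatives 12 of the 22 decreases were kept where tested, those of *Myh1*, *Myh4*, *Myh8*, *Myl1*, *Myl3*, *Actc1*, *Myom1*, *Myom2*, *Tmod1*, *Myoz1*, *Smyd1* and *Csrp3*. The others were lost in 4 alternatives (*Mybpc1* and *Mybph*), 6 (*Myl4* and *Klhl41*), 7 (*Myh3*), 8 (*Pdlim3*), 10 (*Tpm3*), 11 (*Tnnc2*), 13 (*Klhl40*) or 17 (*Actn3*). The number of decreases was 27 with the experiment as a block, against 13.8% of all tested probes in that fit, which added *Acta1*, *Tnni1*, *Tnnt1*, *Tnnt2* and *Des*. It was 14 without control replicate 1, 13 without control replicate 2 or resveratrol replicate 3, and 13 with no filter or in a fit of 6 arrays.

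**Figure D1:**
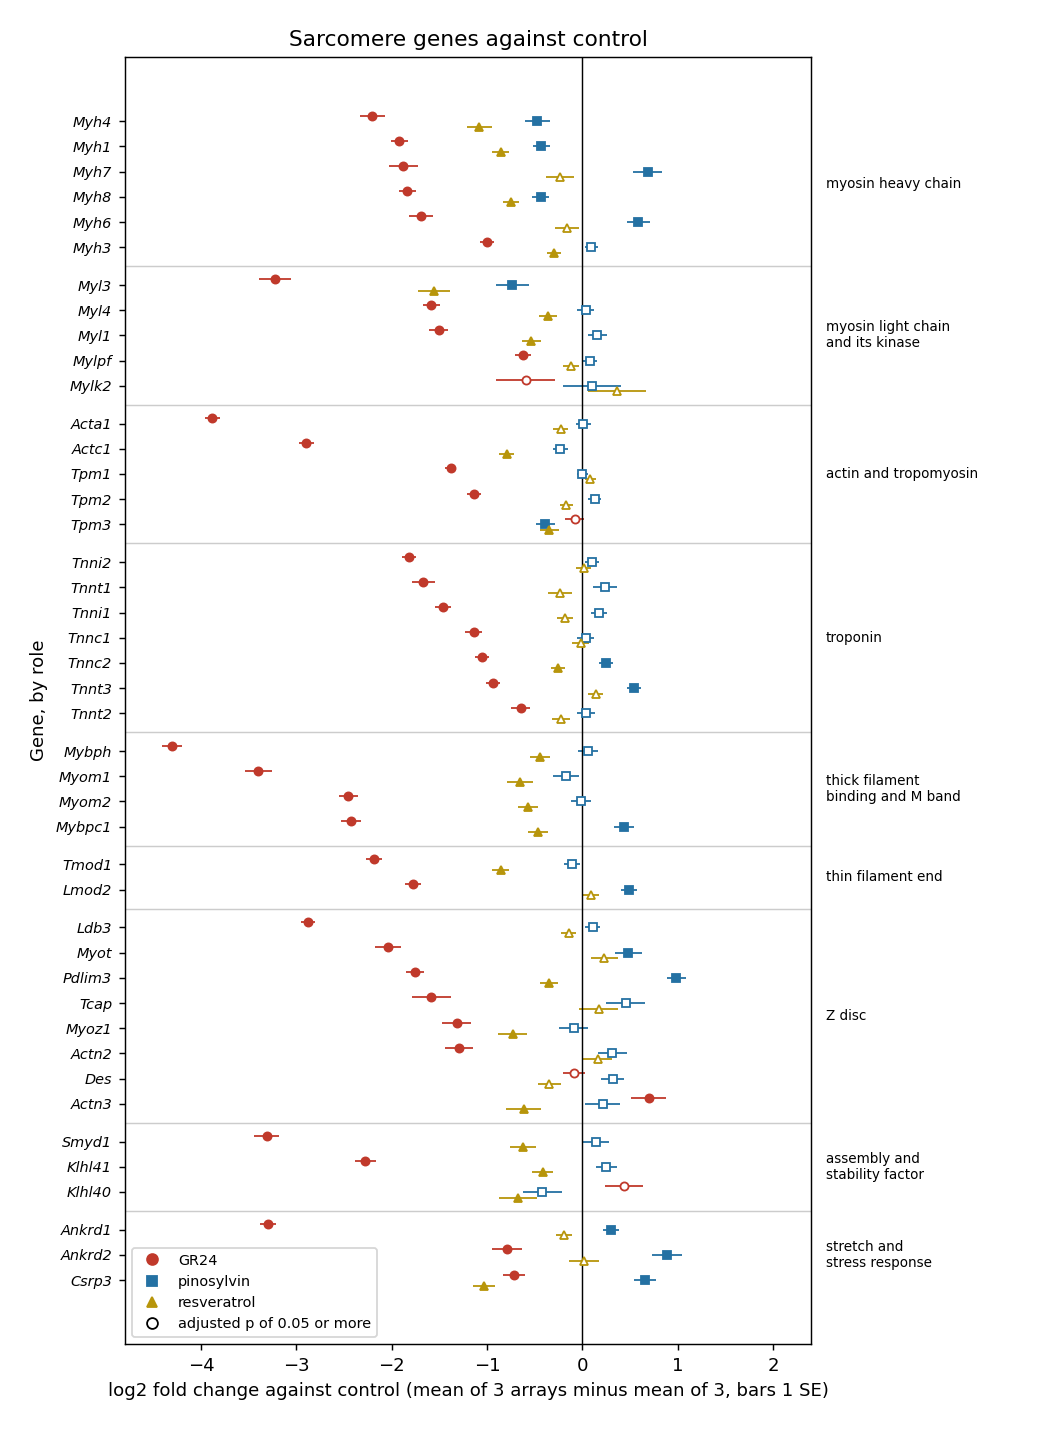
Log2 fold change against control of each of the 43 tested sarcomere genes, grouped by role, with points for GR24, pinosylvin and resveratrol (means of 3 arrays against 3) and bars of 1 SE. Filled points passed the threshold, and the GR24 points of 38 genes lie to the left of 0 and past it, with the point of *Myl3* a fitted value from GR24 arrays that were not well above background.

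Myosin heavy chains are the motors of the thick filament, and 6 of the 7 listed were tested. *Myh3* (embryonic), *Myh8* (neonatal), *Myh1*, *Myh2* and *Myh4* (adult fast) lie next to each other in 1 gene cluster, and *Myh6* and *Myh7* (cardiac and slow) form another pair of neighbours. *Myh2* was at background on every array. Their coding sequences are very alike, so a probe may also read a relative, and how far it did was not tested. All 6 were lower with GR24, against 25.5% of all tested probes.

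*Myh3* read 8.84, 8.97 and 8.75 in control, 7.90, 7.83 and 7.82 with GR24, 8.91, 9.04 and 8.88 with pinosylvin, and 8.57, 8.57 and 8.51 with resveratrol. The GR24 arrays were the lowest, the resveratrol arrays lay between them and control without overlap, and pinosylvin and control overlapped. With GR24 the fold change of *Myh3* was 2.00-fold down (log2 -1.004, SE 0.0719, adjusted p 9.17e-07), the smallest fall of the 6 heavy chains. The decrease of *Myh3* with resveratrol (log2 -0.30, adjusted p 0.0169) did not pass with no filter, in a fit of 6 arrays, or without control replicate 2 or resveratrol replicate 3. It also missed with quantile normalization, with or without normexp (log2 -0.20 in both), and with the series table (-0.21). Over the alternatives its adjusted p ran from 0.00357 to 0.156. With pinosylvin its log2 difference was 0.09 (95% confidence interval -0.07 to 0.25, adjusted p 0.441), and it was -0.03 with quantile normalization.

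*Myh4* read 0.50, 0.44 and 0.18 in control, -1.98, -1.97 and -1.54 with GR24, -0.24, -0.10 and 0.05 with pinosylvin, and -0.72, -0.78 and -0.62 with resveratrol. The groups were in the order control, pinosylvin, resveratrol, GR24 from high to low, with no overlap between any of them. *Myh4* was 4.60-fold lower with GR24 (log2 -2.20, SE 0.133, adjusted p 2.49e-07) and 2.12-fold lower with resveratrol (log2 -1.08, adjusted p 0.000394). Its decrease with pinosylvin (log2 -0.47, adjusted p 0.0361) did not pass with no filter, in a fit of 6 arrays, with the percentile over spots, or without replicate 1 or 2 of control, pinosylvin or resveratrol, left out singly (log2 -0.47 to -0.40, adjusted p 0.0501 to 0.126).

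*Myh8* and *Myh1* kept the same order of groups. *Myh8* read 5.73, 5.54 and 5.41 in control, 3.74, 3.80 and 3.62 with GR24, 5.09, 5.18 and 5.09 with pinosylvin, and 4.81, 4.88 and 4.74 with resveratrol. *Myh1* read 5.27, 5.06 and 4.95 in control, 3.29, 3.17 and 3.06 with GR24, 4.65, 4.63 and 4.70 with pinosylvin, and 4.28, 4.23 and 4.20 with resveratrol. No pair of groups overlapped for either gene. The log2 fold changes of *Myh8* were -1.84 with GR24, -0.44 with pinosylvin and -0.75 with resveratrol (adjusted p 4.47e-08, 0.00687 and 0.000287). Those of *Myh1* were -1.92, -0.43 and -0.86 (adjusted p 3.42e-08, 0.00772 and 0.00013).

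The slow and cardiac chains moved the other way with pinosylvin. *Myh7* read 0.70, 0.37 and 0.03 in control, -1.42, -1.58 and -1.54 with GR24, 1.11, 1.15 and 0.88 with pinosylvin, and 0.27, 0.07 and 0.05 with resveratrol. *Myh6* read 1.50, 1.19 and 1.05 in control, -0.40, -0.35 and -0.60 with GR24, 1.96, 1.89 and 1.65 with pinosylvin, and 1.13, 1.10 and 1.01 with resveratrol. For both genes the pinosylvin arrays were the highest and the GR24 arrays the lowest, and control overlapped with resveratrol only. *Myh7* rose 1.61-fold with pinosylvin (log2 0.69, SE 0.15, adjusted p 0.0108) and *Myh6* 1.50-fold (log2 0.59, SE 0.123, adjusted p 0.00892). In a fit of 6 arrays neither increase passed (adjusted p 0.0665 and 0.0547, the highest of ranges from 0.00204 and 0.00056 over the alternatives). With GR24 the log2 fold changes were -1.88 and -1.69 (adjusted p 2.01e-06 and 1.04e-06). With resveratrol they were -0.23 and -0.16 (adjusted p 0.356 and 0.448).

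**Figure D2:**
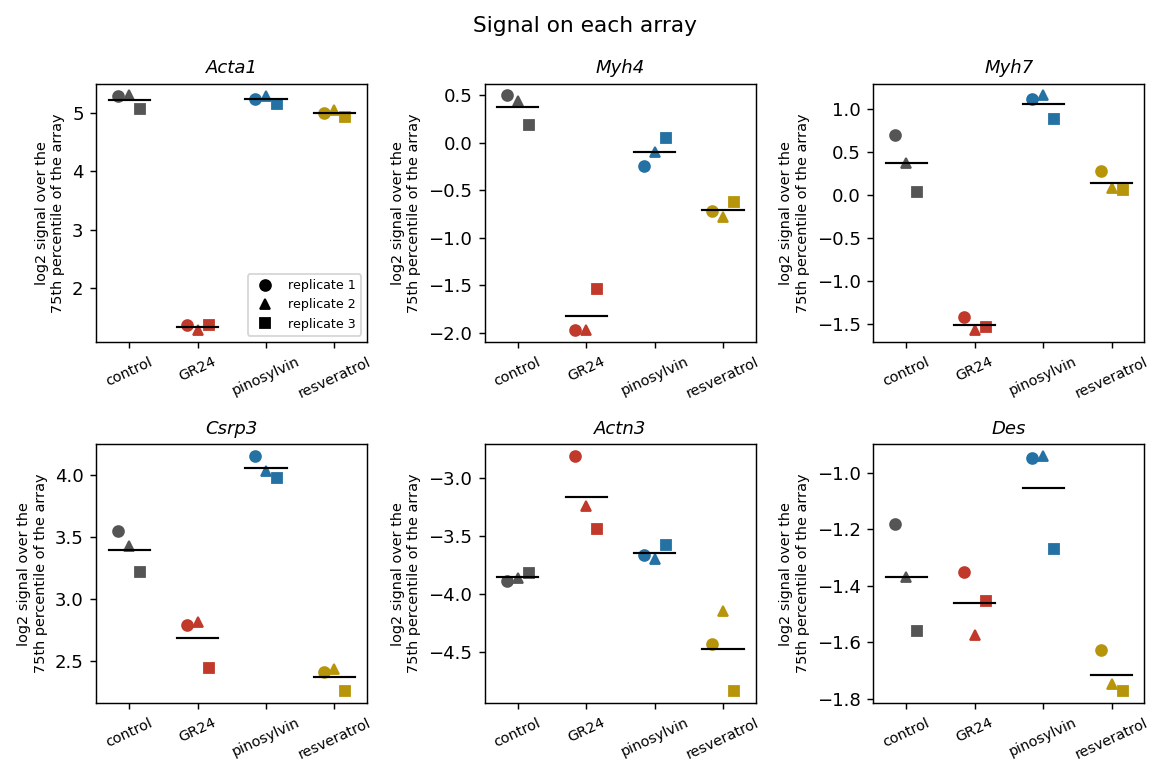
Log2 signal over the 75th percentile of the array for 6 genes on each of the 12 arrays, with 1 symbol per replicate and a line at the mean of each group of 3. GR24 arrays are the lowest for *Acta1*, *Myh4* and *Myh7* and the highest for *Actn3*, while resveratrol arrays are the lowest for *Csrp3* and *Des*.

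Myosin light chains sit at the neck of the myosin head. Of the 5 tested members of this group, which includes a kinase, 4 were lower with GR24, against 25.5% of all tested probes. *Myl3*, the ventricular and slow form, read -3.70, -3.82 and -3.97 in control, -7.03, -6.87 and -7.28 with GR24, -4.24, -4.71 and -4.75 with pinosylvin, and -5.17, -5.67 and -5.33 with resveratrol. The groups did not overlap, and no GR24 array was well above background. *Myl3* was therefore at least 3.65-fold lower with GR24 (adjusted p 9.75e-08). The bound takes each dim array at no less than its lowest signal that was well above background, and it holds for this background correction. *Myl3* passed the filter through control alone, and its decrease also passed with no filter. Under normexp the fitted log2 was -0.80, and the series table gave -1.37. Relative to control, its fitted log2 fold change was -1.56 with resveratrol (adjusted p 0.0002) and -0.73 with pinosylvin (adjusted p 0.0153), with 2 of 3 arrays well above background in either group. The pinosylvin decrease did not pass without control replicate 1, pinosylvin replicate 2 or pinosylvin replicate 3 (log2 -0.67 to -0.64, adjusted p 0.0542 to 0.0614). It also missed with normexp correction (log2 -0.24), the series table (-0.43), slide 1 alone, or a trend in eBayes. The resveratrol change was -0.63 with normexp and -0.89 with the series table.

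*Myl1*, *Myl4* and *Mylpf*, the last listed as *Myl11* in the gene table, encode fast, embryonic and fast regulatory light chains. Their log2 fold changes with GR24 were -1.51, -1.59 and -0.62 (adjusted p 4.95e-07, 1.71e-07 and 9.19e-05). *Myl1* and *Myl4* were also lower with resveratrol, by -0.54 and -0.36 on the log2 scale (adjusted p 0.00437 and 0.0213). *Mylk2*, the skeletal muscle kinase of the regulatory light chain, read -4.52, -4.43 and -4.42 in control and -5.67, -5.32 and -4.17 with GR24. GR24 replicate 3 was above the control arrays and the other replicates below them, and *Mylk2* did not pass (log2 -0.59, adjusted p 0.126). Within slide 1 and without GR24 replicate 3 it was lower (log2 -1.01 and -1.03, the latter with an adjusted p of 0.000397, the lowest of a range to 0.442 over the alternatives). *Myl2* was not well above background on all arrays of any group and was not tested, and *Myl6b* has no named probe.

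Sarcomeric actins form the thin filament. *Acta1*, the adult skeletal form, read 5.29, 5.30 and 5.07 in control, 1.37, 1.27 and 1.37 with GR24, 5.24, 5.29 and 5.16 with pinosylvin, and 4.99, 5.06 and 4.93 with resveratrol. *Actc1*, the form of heart and developing muscle, read 6.14, 6.29 and 6.05 in control, 3.24, 3.23 and 3.33 with GR24, 5.93, 6.01 and 5.85 with pinosylvin, and 5.37, 5.43 and 5.29 with resveratrol. For both actins the GR24 arrays lay far below all others. *Acta1* was 14.8-fold lower with GR24 (log2 -3.88, SE 0.0777, adjusted p 2.4e-10) and *Actc1* 7.45-fold lower (log2 -2.90, SE 0.0781, adjusted p 9.55e-10).

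The actins moved less with the stilbenes. *Actc1* was lower with resveratrol (log2 -0.80, adjusted p 9.74e-05) on arrays that all lay below control and pinosylvin. With pinosylvin its log2 difference from control was -0.23 (adjusted p 0.0705), and it passed in 8 of the 27 alternatives. These were quantile normalization (log2 -0.32), normexp with quantile normalization, the series table, the experiment or slide as a block, a trend in eBayes, adjustment over 6 comparisons, and leaving out control replicate 3. Its adjusted p ran from 0.00831 to 0.223. *Acta1* differed from control by 0.01 with pinosylvin (95% confidence interval -0.16 to 0.18, adjusted p 0.958), and the sign was negative without control replicate 3 (-0.06) or pinosylvin replicate 2 (-0.02). With resveratrol *Acta1* missed the threshold (log2 -0.23, adjusted p 0.0732), and passed in 7 alternatives, namely either block, slide 1 alone, a trend in eBayes, adjustment over 6 comparisons, the percentile over spots, and leaving out control replicate 3 (log2 -0.30), in a range of 0.0205 to 0.212.

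Tropomyosins lie along actin and cover its myosin binding sites. *Tpm1* and *Tpm2* were lower with GR24 (log2 -1.38 and -1.14, adjusted p 1.7e-08 and 3.1e-07). *Tpm3*, a slow and widely expressed form, read 4.99, 5.18 and 4.86 in control, 4.98, 4.95 and 4.87 with GR24, 4.51, 4.75 and 4.60 with pinosylvin, and 4.81, 4.59 and 4.59 with resveratrol. Control and GR24 overlapped, while both stilbene groups lay below every control array. With GR24 its log2 difference was -0.08 (95% confidence interval -0.30 to 0.14, adjusted p 0.538), and 0.01 without control replicate 2. *Tpm3* fell with pinosylvin (log2 -0.39, adjusted p 0.0241) and resveratrol (log2 -0.35, adjusted p 0.0393). With no filter, in a fit of 6 arrays, in slide 1 alone, or without control replicate 1 or 2 or pinosylvin replicate 1 or 3, the pinosylvin decrease did not pass (log2 -0.45 to -0.30, adjusted p 0.0559 to 0.0906).

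Troponin is the calcium switch of the thin filament. All 7 tested subunit genes were lower with GR24, against 25.5% of all tested probes. The largest and smallest decreases were those of *Tnni2*, the fast inhibitory subunit, and *Tnnt2*, the cardiac and embryonic tropomyosin-binding subunit. *Tnni2* read 6.73, 6.84 and 6.78 in control and 4.93, 5.05 and 4.91 with GR24 (log2 -1.82, adjusted p 1.84e-08). *Tnnt2* read 8.48, 8.69 and 8.42 in control and 7.99, 7.92 and 7.75 with GR24 (log2 -0.65, adjusted p 0.000237, and log2 -0.35 with the series table). The groups overlapped for neither gene. The other subunits were *Tnnc1* (log2 -1.14), *Tnnc2* (-1.05), *Tnni1* (-1.46), *Tnnt1* (-1.67) and *Tnnt3* (-0.94). Pinosylvin raised the fast subunits *Tnnt3* (log2 0.54, adjusted p 0.000919) and *Tnnc2* (log2 0.25, adjusted p 0.0408), and resveratrol lowered *Tnnc2* (log2 -0.26, adjusted p 0.0365).

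Genes for proteins that bind the thick filament and link it at the M band fell the furthest as a role, with a median log2 fold change of -2.93 over 4 tested members with GR24. *Mybph*, a relative of myosin binding protein C, read 6.88, 6.90 and 6.66 in control, 2.67, 2.48 and 2.38 with GR24, 6.99, 6.92 and 6.71 with pinosylvin, and 6.39, 6.42 and 6.31 with resveratrol. The GR24 arrays lay far below the rest, and the resveratrol arrays lay just below control without overlap. *Mybph* was 19.7-fold lower with GR24 (log2 -4.30, SE 0.103, adjusted p 4.11e-10), the largest fitted change among the 43. With resveratrol its log2 fold change was -0.44 (adjusted p 0.0147).

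*Myom1* and *Myom2*, the myomesins that crosslink myosin at the M band, were lower with GR24 on every array. *Myom1* read 1.96, 1.71 and 1.50 in control and -1.62, -1.71 and -1.69 with GR24 (10.5-fold, log2 -3.40, adjusted p 1.27e-08). *Myom2* read 3.19, 2.93 and 2.80 in control and 0.62, 0.43 and 0.51 with GR24 (5.48-fold, log2 -2.45, adjusted p 1.81e-08). *Mybpc1*, the slow myosin binding protein C, read -2.08, -2.10 and -2.18 in control, -4.50, -4.53 and -4.61 with GR24, -1.79, -1.57 and -1.70 with pinosylvin, and -2.39, -2.83 and -2.54 with resveratrol. The pinosylvin arrays were above control, the resveratrol arrays below control and the GR24 arrays lowest, with no overlap. The log2 fold changes of *Mybpc1* were -2.43 with GR24, 0.43 with pinosylvin and -0.47 with resveratrol (adjusted p 2.08e-08, 0.018 and 0.012), the first being -1.32 with normexp. With resveratrol all 4 members of this role were lower, against 8.99% of all tested probes. However, *Mybpc1* did not pass with quantile normalization, the series table, slide 1 alone or a fit of 6 arrays. *Mybph* did not pass with no filter, or without control replicate 1 or 2 or resveratrol replicate 3. The giant proteins titin and nebulin (*Ttn* and *Neb*), the smaller nebulette (*Nebl*) and *Mybpc2* have no named probe, so nothing is known here of them.

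At the pointed end of the thin filament, *Tmod1* encodes a cap and *Lmod2* an actin nucleator that lengthens the filament. *Tmod1* read 0.11, 0.13 and -0.17 in control, -2.14, -2.19 and -2.17 with GR24, and -0.82, -0.81 and -0.87 with resveratrol. *Lmod2* read -0.02, -0.18 and -0.05 in control, -1.90, -1.94 and -1.72 with GR24, and 0.39, 0.34 and 0.49 with pinosylvin. None of these groups overlapped with control. *Tmod1* was lower with GR24 and resveratrol (log2 -2.19 and -0.86, adjusted p 1.06e-08 and 0.000107), and *Lmod2* was lower with GR24 and higher with pinosylvin (log2 -1.77 and 0.49, adjusted p 3.77e-08 and 0.00268). *Tmod4* was not well above background on all arrays of any group and *Lmod3* has no named probe.

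The Z disc anchors thin filaments through alpha-actinin. Of 8 tested members, 6 were lower with GR24 and 1 was higher, against 25.5% and 31.5% of all tested probes, and *Des* did not pass. *Ldb3*, the PDZ-LIM protein also called Cypher or ZASP, read 4.39, 4.44 and 4.19 in control and 1.53, 1.45 and 1.42 with GR24 (7.35-fold lower, log2 -2.88, adjusted p 8.9e-10). *Myot*, *Tcap*, *Myoz1* and *Actn2*, for myotilin, telethonin, a calsarcin and the alpha-actinin of all striated fibres, had log2 fold changes of -2.04, -1.59, -1.32 and -1.29. Pinosylvin raised *Myot* (log2 0.48, adjusted p 0.0374), and resveratrol lowered *Myoz1* (log2 -0.73, adjusted p 0.00853). The other tested probes of *Myot* missed the threshold with pinosylvin (log2 0.50 and 0.45, adjusted p 0.138 and 0.0618).

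*Pdlim3*, which encodes the actinin-associated LIM protein, separated all 4 groups. It read -0.32, -0.38 and -0.62 in control, -2.09, -2.15 and -2.36 with GR24, 0.57, 0.49 and 0.57 with pinosylvin, and -0.84, -0.80 and -0.74 with resveratrol. Pinosylvin was highest, then control, resveratrol and GR24, and no groups overlapped. *Pdlim3* rose 1.98-fold with pinosylvin (log2 0.99, SE 0.0952, adjusted p 6.16e-05), the largest increase with that compound among the 43. It fell with GR24 (log2 -1.76, adjusted p 1.08e-07) and with resveratrol (log2 -0.35, adjusted p 0.029).

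*Actn3*, the alpha-actinin of fast fibres, was the 1 member that rose with GR24. It read -3.89, -3.87 and -3.82 in control, -2.81, -3.24 and -3.44 with GR24, -3.66, -3.70 and -3.58 with pinosylvin, and -4.44, -4.15 and -4.84 with resveratrol. All GR24 arrays were above control, and all resveratrol arrays were below it. The change was 1.62-fold with GR24 (log2 0.69, SE 0.181, adjusted p 0.00714), or log2 0.28 with normexp (adjusted p 0.042, range 0.00218 to 0.042), and log2 -0.62 with resveratrol (adjusted p 0.0412).

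*Des* encodes desmin, the intermediate filament around the Z disc. It read -1.18, -1.37 and -1.56 in control, -1.35, -1.57 and -1.45 with GR24, -0.95, -0.94 and -1.27 with pinosylvin, and -1.63, -1.75 and -1.77 with resveratrol. GR24 and pinosylvin arrays overlapped with control, and the resveratrol arrays lay just below it. With GR24 the log2 difference of *Des* was -0.09 (95% confidence interval -0.35 to 0.17, adjusted p 0.566), and 0.01 without control replicate 1. With pinosylvin it was 0.32 (adjusted p 0.101), passing with the experiment (0.0235) or slide as a block or without pinosylvin replicate 3 (log2 0.43, adjusted p 0.0368), in a range of 0.0235 to 0.285. With resveratrol it was -0.35 (adjusted p 0.0747), passing with either block, slide 1 alone, adjustment over 6 comparisons, the percentile over spots, or without control or pinosylvin replicate 3 (log2 -0.44 and -0.35), in a range of 0.0164 to 0.238.

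Assembly factors fold myosin or stabilise thin filament proteins. *Smyd1*, a methyltransferase needed for myosin assembly, read -0.86, -0.81 and -0.87 in control, -4.39, -4.32 and -3.77 with GR24, -0.64, -0.71 and -0.77 with pinosylvin, and -1.43, -1.49 and -1.50 with resveratrol. The GR24 arrays were far below control and the resveratrol arrays moderately below it, without overlap. *Smyd1* was 9.94-fold lower with GR24 (log2 -3.31, SE 0.135, adjusted p 1.38e-08, with a log2 of -2.12 under normexp) and 1.54-fold lower with resveratrol (log2 -0.62, adjusted p 0.01). *Klhl41*, a nemaline myopathy gene, was lower with both as well (log2 -2.28 and -0.42, adjusted p 5.35e-08 and 0.0282).

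*Klhl40*, a relative that stabilises leiomodin and nebulin, went another way. It read -0.30, -0.19 and -0.95 in control, 0.02, 0.03 and -0.16 with GR24, -0.85, -0.71 and -1.12 with pinosylvin, and -0.87, -1.22 and -1.38 with resveratrol. GR24 arrays were the highest, and control replicate 3 lay among the stilbene arrays. *Klhl40* did not pass with GR24 (log2 0.44, adjusted p 0.0865), but did with the experiment or slide as a block, the percentile over spots (log2 0.54) and without control replicate 2 (log2 0.58), in a range of 0.00796 to 0.316. It was lower with resveratrol although the groups overlapped (log2 -0.68, adjusted p 0.0425). *Unc45b* has no named probe.

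Genes that link the sarcomere to stretch and stress signals were higher with pinosylvin and lower with GR24, for all 3 tested. Of all tested probes, 8.28% were higher with pinosylvin and 25.5% lower with GR24. *Ankrd1*, the cardiac ankyrin repeat protein bound to titin, read 8.21, 8.38 and 8.13 in control, 5.09, 4.86 and 4.88 with GR24, 8.50, 8.59 and 8.53 with pinosylvin, and 8.03, 8.12 and 7.99 with resveratrol. The GR24 arrays stood far below the others and the pinosylvin arrays just above control. *Ankrd1* was 9.83-fold lower with GR24 (log2 -3.30, SE 0.0847, adjusted p 6.6e-10) and higher with pinosylvin (log2 0.30, adjusted p 0.0352), the latter lost in 11 of 27 alternatives (log2 0.18 to 0.32, adjusted p 0.0513 to 0.16).

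*Csrp3*, the muscle LIM protein, read 3.55, 3.43 and 3.22 in control, 2.79, 2.82 and 2.45 with GR24, 4.16, 4.04 and 3.98 with pinosylvin, and 2.42, 2.44 and 2.26 with resveratrol. Pinosylvin arrays were all above control, and GR24 and resveratrol arrays all below it. The log2 fold changes of *Csrp3* were -0.71 with GR24, 0.66 with pinosylvin and -1.03 with resveratrol (adjusted p 0.000396, 0.0037 and 0.000244). *Ankrd2*, the stretch-responsive relative of *Ankrd1*, read -2.28, -2.19 and -2.26 in control, -3.09, -3.01 and -3.01 with GR24, -1.42, -1.25 and -1.39 with pinosylvin, and -1.79, -2.29 and -2.59 with resveratrol. Pinosylvin arrays were above control, GR24 arrays below it, and resveratrol arrays on both sides of it. Its log2 fold changes were -0.79 with GR24 and 0.89 with pinosylvin (adjusted p 0.00151 and 0.00365), and 0.02 with resveratrol (95% confidence interval -0.34 to 0.37, adjusted p 0.97), which was negative with normexp at the 75th percentile (-0.05) and without control replicate 1 or resveratrol replicate 1 (-0.003 and -0.20). *Xirp2* was at background on every array, and *Xirp1* has no named probe.

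The compounds were compared directly in 3 pairs at the same dose and time, each from the same fit with p adjusted over all tested probes. Confidence intervals are per probe and not adjusted. Pinosylvin and resveratrol, which differ by the hydroxyl group on resveratrol, differed in 30 of the 43 members. All 30 were higher with pinosylvin, against 7.68% of all tested probes, with a median log2 difference of 0.48 beside 0.02 over all tested probes. By limma 0 were lower, against 6.85% of all tested probes, also 0 at an unadjusted p under 0.05. *Tpm1* was lower with quantile normalization, with normexp and quantile normalization, and with the mean of its probes (log2 -0.21, -0.22 and -0.26). Another tested probe of *Tpm1*, not the one used, was lower with pinosylvin by limma (log2 -0.75, adjusted p 0.000301). The median was 0.47 within slide 1 and 0.50 within slide 2. Of the 30, 17 were kept in all 27 alternatives, and with the experiment as a block 35 were higher, against 14.4% of all tested probes in that fit, which added *Mylpf*, *Acta1*, *Tnnt2*, *Myot* and *Ldb3*.

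By role, the members higher with pinosylvin than with resveratrol were 6 of 6 myosin heavy chains, 3 of 5 light chains and kinase, 2 of 5 actins and tropomyosins, and 4 of 7 troponins. They were 4 of 4 thick filament and M band genes, 2 of 2 at the thin filament end and 4 of 8 of the Z disc. Among assembly factors they were 2 of 3, and among stretch and stress genes 3 of 3. Of all tested probes, 7.68% were higher with pinosylvin. The largest difference was that of *Csrp3*, 3.21-fold (log2 1.68, SE 0.117, 95% confidence interval 1.42 to 1.95, adjusted p 2.32e-05), on arrays that did not overlap. *Pdlim3* differed 2.53-fold (log2 1.34, 95% confidence interval 1.13 to 1.55, adjusted p 2.44e-05). *Myh7* differed by a log2 of 0.92 (0.58 to 1.25, adjusted p 0.00271), *Mybpc1* by 0.90 (0.67 to 1.13, adjusted p 0.000361, 0.59 with normexp and quantile normalization) and *Ankrd2* by 0.87 (0.52 to 1.23, adjusted p 0.00482).

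Some members did not pass between the stilbenes. *Acta1* differed by a log2 of 0.24 (95% confidence interval 0.07 to 0.41, adjusted p 0.0689), and passed with either block, a trend in eBayes, adjustment over 6 comparisons, the percentile over spots and without control replicate 3, in a range of 0.0191 to 0.212 over the alternatives. *Tnni2* differed by 0.09 (-0.08 to 0.26, adjusted p 0.525), *Tpm1* by -0.08 (-0.21 to 0.05, adjusted p 0.396) and *Tnnc1* by 0.05 (-0.15 to 0.25, adjusted p 0.785). The signs of *Tnni2* and *Tnnc1* were negative with quantile normalization, with or without normexp, and with the series table. For *Des* the difference passed, with a log2 of 0.66 (0.40 to 0.93, adjusted p 0.00437), and for *Actc1* with 0.56 (0.39 to 0.74, adjusted p 0.00102). *Myh3* differed by 0.39 (adjusted p 0.00488), which did not pass with quantile normalization (log2 0.17, adjusted p 0.108) or the series table (log2 0.21, adjusted p 0.166), in a range of 0.000998 to 0.166 over the alternatives. *Myh8* differed by 0.31 (adjusted p 0.0402), which was lost with no filter, in slide 1 alone, and on leaving out single arrays, namely GR24 replicate 1, control replicate 2, replicates 1 to 3 of resveratrol, or replicates 1 to 3 of pinosylvin (log2 0.28 to 0.35, adjusted p 0.0529 to 0.131).

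**Figure D3:**
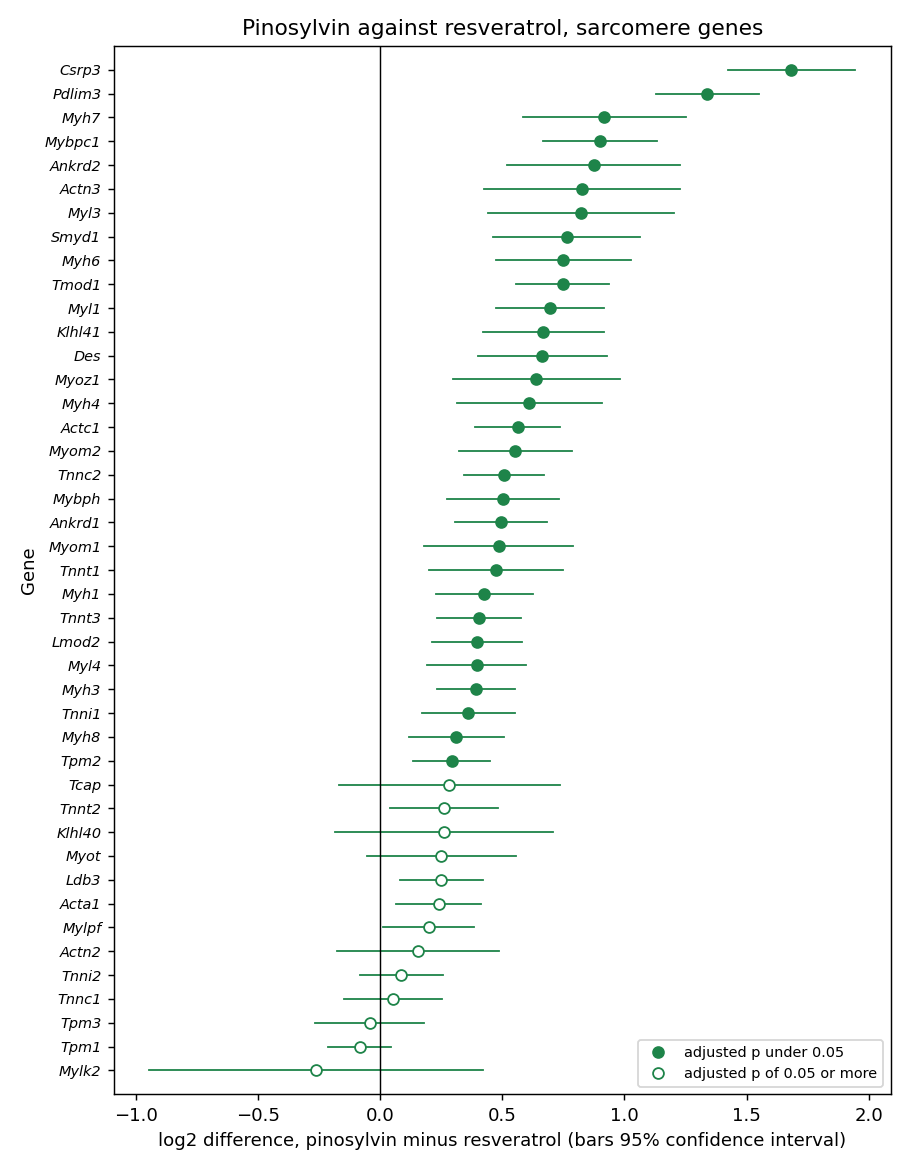
Log2 difference between pinosylvin and resveratrol for each of the 43 tested sarcomere genes in order of size, with 95% confidence intervals. Filled points passed the threshold, and all 30 of these lie above 0, up to 1.68 for *Csrp3*.

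GR24 gave lower signals than either stilbene for most members. Against pinosylvin, 39 were lower, with 26.8% of all tested probes lower, and 3 were higher, with 29.6% of all tested probes higher. The members' median was -1.68, or -1.67 with *Myl3* at its bound, beside -0.00 over all tested probes. Against resveratrol, 38 were lower, with 23.9% of all tested probes lower, and 4 were higher, with 27.4% of all tested probes higher. That median was -1.33, or -1.28 with *Myl3* at its bound, beside 0.02 over all tested probes. Within slides 1 and 2 the medians were -1.76 and -1.64 against pinosylvin, and -1.29 and -1.27 against resveratrol. Where tested, 38 of the 39 decreases against pinosylvin were kept in all 27 alternatives, all but that of *Des*, and 35 of the 38 against resveratrol. *Mylk2* was lost in 8 of them, and *Myl3* and *Myoz1* with normexp (log2 -0.17 and -0.24). The experiment as a block added *Mylk2* to those lower than with pinosylvin.

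*Mybph*, *Acta1* and *Ankrd1* had the largest decreases in both of these comparisons. *Mybph* was 20.6-fold lower with GR24 than with pinosylvin (log2 -4.36, 95% confidence interval -4.59 to -4.13, adjusted p 6.02e-10) and 14.5-fold lower than with resveratrol (log2 -3.86, -4.09 to -3.63, adjusted p 2.09e-09). *Acta1* was 14.9-fold lower than with pinosylvin (-4.07 to -3.72 on the log2 scale) and 12.6-fold lower than with resveratrol (-3.83 to -3.48). *Ankrd1* was 12.1-fold and 8.60-fold lower (log2 -3.60 and -3.10). *Myl3* was at least 2.19-fold lower than with pinosylvin (adjusted p 8.05e-07) and at least 1.24-fold lower than with resveratrol (adjusted p 1.87e-05), the latter lost with normexp. Both bounds hold for this background correction only, and the differences fitted under normexp were smaller.

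A few members were higher with GR24. *Klhl40* exceeded pinosylvin by a log2 of 0.86 (0.41 to 1.30, adjusted p 0.00398) and resveratrol by 1.12 (0.67 to 1.56, adjusted p 0.00086). *Actn3* exceeded resveratrol by 1.31 (0.91 to 1.71, adjusted p 0.000143), or by 0.56 with normexp and 0.79 with the series table. Both calls of *Klhl40* and this call of *Actn3* were kept in all 27 alternatives.

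The remaining higher calls were small for the probes used, and those of *Tpm3* differed between its probes, as given at the end. *Actn3* exceeded pinosylvin by 0.48 (adjusted p 0.0417), which was lost in 16 of 27 alternatives (log2 0.15 to 0.56, adjusted p 0.0527 to 0.262). These were quantile normalization, normexp with either scaling (0.15 and 0.23), the series table (0.34), no filter, a trend in eBayes, adjustment over 6 comparisons, and leaving out any 1 control or pinosylvin array, GR24 replicate 1 or 2, or resveratrol replicate 1. *Tpm3* exceeded pinosylvin by 0.31 (adjusted p 0.0225), lost with no filter, in slide 1 alone, or without GR24 replicate 1 or 2 or pinosylvin replicate 1 or 3 (log2 0.25 to 0.33, adjusted p 0.0526 to 0.0839). *Tpm3* exceeded resveratrol by 0.27 (adjusted p 0.0469), lost with no filter, in slide 1 alone, with adjustment over 6 comparisons, or without any GR24 array, control replicate 1, pinosylvin replicate 1 or 3, or resveratrol replicate 2 or 3 (log2 0.23 to 0.30, adjusted p 0.0502 to 0.137). *Csrp3* exceeded resveratrol by 0.31 (adjusted p 0.0446), lost with no filter, in a fit of 6 arrays, with adjustment over 6 comparisons, or without any pinosylvin or resveratrol array, GR24 replicate 1 or 2, or control replicate 2 (log2 0.25 to 0.35, adjusted p 0.0524 to 0.15).

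*Des* was lower with GR24 than with pinosylvin (log2 -0.41, adjusted p 0.0137), which was lost with the series table or without pinosylvin replicate 1 or 2 or GR24 replicate 2 (log2 -0.35 to -0.33, adjusted p 0.0519 to 0.0599). Against resveratrol it differed by 0.26 (95% confidence interval -0.01 to 0.52, adjusted p 0.0968), passing with either block and with the percentile over spots (log2 0.37, adjusted p 0.0149, in a range of 0.0149 to 0.261 over the alternatives).

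Other sarcomere genes outside the 56 were taken as a list of 33, of which 26 had a probe and 23 were tested. With GR24, 16 were lower and 4 higher, against 25.5% and 31.5% of all tested probes, and the median log2 fold change was -0.69. *Smpx*, a small muscle protein at the costamere, read -1.26, -1.18 and -1.35 in control, -5.38, -5.52 and -5.27 with GR24, -0.48, -0.42 and -0.25 with pinosylvin, and -1.86, -2.06 and -1.93 with resveratrol. Its pinosylvin arrays were the highest and its GR24 arrays, none of them well above background, the lowest. *Smpx* was at least 17.5-fold lower with GR24 (adjusted p 3.55e-10), rose with pinosylvin (log2 0.88, adjusted p 0.00011) and fell with resveratrol (log2 -0.68, adjusted p 0.000674). Its GR24 signals, and the control signals of *Mylk3* below, were above the lowest signal used for bounds, so these 2 bounds equal the fitted changes. *Tnni3*, the cardiac troponin I, was at least 7.19-fold lower with GR24 (adjusted p 9.78e-06), and *Synpo2l*, a Z disc protein, fell by 2.65 on the log2 scale (adjusted p 4.74e-08).

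Among the 4 that rose with GR24 were *Bag3* and *Hspb8*, a chaperone pair that clears damaged Z disc proteins. *Bag3* read 5.09, 5.03 and 5.01 in control and 6.08, 6.23 and 5.95 with GR24 (log2 1.04, adjusted p 1.15e-06), and *Hspb8* also had a log2 fold change of 1.04 (adjusted p 1.13e-05). *Mylk3*, a cardiac myosin light chain kinase, was at least 2.91-fold higher with GR24 (adjusted p 0.000214) and at background on every control array. It passed the filter through GR24 and resveratrol, and was higher with no filter as well. With pinosylvin 6 of the 23 were higher, against 8.28% of all tested probes, led by *Trim54*, a ubiquitin ligase bound to microtubules (log2 1.09, adjusted p 8.66e-05), *Smpx* and *Hspb8* (0.52, adjusted p 0.00687). Only *Tnni3* was lower with pinosylvin (log2 -1.32, adjusted p 0.0275), against 8.27% of all tested probes. With resveratrol 5 were lower, against 8.99% of all tested probes, with *Tnni3* (log2 -1.55, adjusted p 0.0126), *Nrap* (-0.81, adjusted p 0.00216) and *Smpx* the furthest. A further 3 were higher with resveratrol, against 7.99% of all tested probes, namely *Trim54*, *Hspb8* and *Bag3* (0.48, 0.35 and 0.26). Without any 1 of the control or pinosylvin arrays the count lower with pinosylvin was 0. It was also 0 without the filter and with the filter on all 12 arrays. It was 2 with the other normalizations, the series table, the percentile over spots, either block or a trend in eBayes. Adjustment over the 6 comparisons together, or leaving out GR24 replicate 3, also gave 2. The count lower with resveratrol was 8 without control replicate 3 or with the slide as a block. It was 3 without resveratrol replicate 3 or with the filter on all 12 arrays. With the experiment as a block it was 9, against 13.8% of all tested probes in that fit. The count higher with resveratrol was 0 without resveratrol replicate 1 or 2 or in a fit of 6 arrays. It was 1 with no filter, and without control replicate 2 or 3, GR24 replicate 1, or pinosylvin replicate 1 or 2. Between the stilbenes 6 were higher with pinosylvin, against 7.68% of all tested probes. With the experiment as a block 13 differed, where 14.4% of all tested probes were higher and 11.6% lower.

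Genes of the cytoskeleton of most cells and of smooth muscle were measured beside them. Of 16 tested genes of the non-muscle cytoskeleton, 13 were lower with GR24, against 25.5% of all tested probes. The median of the 16 was -0.97, and *Myl9* (log2 -2.26), *Myh10* (-1.85) and *Myh14* (-1.83) fell the furthest. With pinosylvin 4 of the 16 were lower, against 8.27% of all tested probes, among them *Vim* and *Tpm4* (-0.47 and -0.41). With resveratrol 3 were lower, against 8.99% of all tested probes, namely *Vim*, *Actn4* and *Tpm4* (-0.63, -0.34 and -0.32). Of 9 smooth muscle genes, 8 were tested and 6 were lower with GR24, against 25.5% of all tested probes. This list includes *Des*, which is also a member and did not pass with GR24. *Acta2*, smooth muscle actin, read 4.56, 4.73 and 4.78 in control and 0.20, 0.36 and 0.74 with GR24 (log2 -4.26, adjusted p 3.67e-09), on arrays that did not overlap. *Actg2* fell by 2.07 on the log2 scale and *Mylk* was at least 2.9-fold lower. The summed signal of the 8 smooth muscle genes, in units of the array's 75th percentile, was 207, 228 and 200 in control, 75.5, 80.6 and 69.8 with GR24, 209, 222 and 200 with pinosylvin, and 201, 230 and 194 with resveratrol. *Tagln* had the brightest of these probes, and *Cnn1* was at background on every array. With pinosylvin 1 of the 8 was lower, *Lmod1* (log2 -0.44), against 8.27% of all tested probes. With resveratrol 1 was lower, *Myh11* (-0.54), against 8.99% of all tested probes.

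Markers of cell state were measured as well. Of 7 tested myotube markers, 4 are also members (*Des*, *Myh3*, *Acta1* and *Tnnt3*), and the others are *Myog*, *Ckm* and *Chrna1*. With GR24 5 of the 7 were lower, against 25.5% of all tested probes, with a median of -1.004, which is the value of *Myh3*. *Myog*, the transcription factor of terminal differentiation, read 5.24, 5.25 and 5.08 in control, -0.38, -1.05 and -0.50 with GR24, 6.01, 5.85 and 5.91 with pinosylvin, and 4.72, 4.67 and 4.65 with resveratrol. Its order was pinosylvin, control, resveratrol, GR24, with no overlap, and the log2 fold changes against control were -5.83 with GR24, 0.73 with pinosylvin and -0.51 with resveratrol (adjusted p 5.53e-10, 0.00654 and 0.0375). *Ckm*, muscle creatine kinase, fell by 2.58 on the log2 scale with GR24 and by 1.04 with resveratrol. With pinosylvin 2 of the 7 were higher, *Myog* and *Tnnt3*, against 8.28% of all tested probes. With resveratrol 3 were lower, *Ckm*, *Myog* and *Myh3*, against 8.99% of all tested probes. The part of these markers in the changes of the sarcomere genes was not tested.

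Of 10 markers of undifferentiated myoblasts, 8 were tested. With GR24, 3 were lower, *Mki67* (log2 -2.83), *Myf5* (-0.88) and *Ccnd1* (-0.21), and 2 were higher, *Id2* (1.22) and *Hes1* (0.65), while 25.5% of all tested probes were lower and 31.5% higher. *Mki67*, a marker of cycling cells, read 4.38, 4.00 and 4.05 in control, 1.37, 1.40 and 1.18 with GR24, 2.48, 2.57 and 2.42 with pinosylvin, and 3.30, 3.40 and 3.30 with resveratrol, with no overlap. With pinosylvin *Mki67*, *Id1* and *Id2* were lower (log2 -1.65, -0.77 and -0.34), against 8.27% of all tested probes. *Hes1* was higher with pinosylvin (0.55), against 8.28% of all tested probes. With resveratrol *Mki67* was lower (-0.81), against 8.99% of all tested probes, and *Hes1* higher (0.69), against 7.99%. The summed signal of the 8 was 69.5, 65.8 and 67.7 in control, 44.2, 44.1 and 43.5 with GR24, 50.3, 50.7 and 53.5 with pinosylvin, and 55.7, 58.0 and 57.7 with resveratrol, with *Ccnd1* the brightest probe.

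Of 6 fibroblast markers, all tested, 5 were lower with GR24, against 25.5% of all tested probes. *Thy1*, *Lum* and *Col1a1* fell the furthest (log2 -0.90, -0.85 and -0.81). *Pdgfra* was higher (0.23), against 31.5% of all tested probes. With pinosylvin *Thy1* and *Col1a1* were lower (-0.63 and -0.34), against 8.27% of all tested probes. *Lum* and *Pdgfra* were higher with pinosylvin (0.53 and 0.43), against 8.28% of all tested probes. With resveratrol *Col1a1* was lower (-0.43), against 8.99% of all tested probes, and *Pdgfra* higher (0.35), against 7.99%. The summed signal of the fibroblast markers was 358, 395 and 366 in control, 252, 255 and 245 with GR24, 335, 371 and 374 with pinosylvin, and 308, 302 and 321 with resveratrol, with *Col1a2* the brightest probe. Of 6 cardiomyocyte markers only *Tnni3* and *Nppb* were tested. *Nppb* was lower with GR24 and resveratrol (log2 -0.86 and -0.72, adjusted p 0.00408 and 0.0347). Of 4 endothelial markers, *Cdh5* and *Tek* were tested, and neither passed in any comparison (log2 -0.44 and -0.53 with GR24, adjusted p 0.151 and 0.0743). Of 4 adipocyte markers, 0 were tested. How much the cells behind these markers add to the changes of the sarcomere genes was not tested.

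Promoters of the members that move together were read for motifs known from muscle genes. RefSeq promoter windows of the rat build GRCr8, each 300 bases with 250 before and 50 after the gene's start, were found for 44 of the 56 members and 33 of the 43 tested, 3 of them with more than 1 window. On either strand, the CArG box, the motif that serum response factor binds, occurred in 5 of 33 tested members (15.2%) and in 1.77% of all 27457 genes with a window. These 5, *Acta1*, *Actc1*, *Ldb3*, *Myl3* and *Myh4*, were all lower with GR24, as were 29 of the 33. The MEF2 motif occurred in 6 (18.2%), namely *Klhl40*, *Klhl41*, *Myh1*, *Myh4*, *Myl1* and *Myoz1*, and in 3.66% of all genes. The E-box CAGCTG occurred in 13 (39.4%) and in 16.2% of all genes, and TATAAA in 11 (33.3%) and in 15.3% of all genes. A match is a description and not a binding site, and the differences in shares were not tested.

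The first 4 windows belong to genes that fell far with GR24, and the capitals mark the CArG match. They are *Acta1* at chr19:68784145-68784444 and *Actc1* at chr3:121271778-121272077, *Ldb3* at chr16:9924630-9924929, all on the minus strand, and *Myl3* at chr8:119616844-119617143 on the plus strand.
Acta1: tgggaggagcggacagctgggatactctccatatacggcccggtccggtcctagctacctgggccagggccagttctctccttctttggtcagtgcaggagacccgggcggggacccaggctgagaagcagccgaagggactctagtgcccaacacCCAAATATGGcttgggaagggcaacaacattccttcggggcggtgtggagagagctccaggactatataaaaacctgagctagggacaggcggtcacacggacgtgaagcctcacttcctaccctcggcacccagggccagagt
Actc1: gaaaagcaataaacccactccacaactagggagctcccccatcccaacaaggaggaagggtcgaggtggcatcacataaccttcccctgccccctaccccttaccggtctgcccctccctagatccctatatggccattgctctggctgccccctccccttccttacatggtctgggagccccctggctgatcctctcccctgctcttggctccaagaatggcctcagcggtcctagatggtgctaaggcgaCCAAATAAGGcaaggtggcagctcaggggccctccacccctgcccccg
Ldb3: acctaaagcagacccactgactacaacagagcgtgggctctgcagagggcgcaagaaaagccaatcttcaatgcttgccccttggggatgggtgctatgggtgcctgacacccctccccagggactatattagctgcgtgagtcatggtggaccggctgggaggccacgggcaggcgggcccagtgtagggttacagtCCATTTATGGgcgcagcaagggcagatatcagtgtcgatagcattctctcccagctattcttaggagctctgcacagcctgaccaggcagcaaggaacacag
Myl3: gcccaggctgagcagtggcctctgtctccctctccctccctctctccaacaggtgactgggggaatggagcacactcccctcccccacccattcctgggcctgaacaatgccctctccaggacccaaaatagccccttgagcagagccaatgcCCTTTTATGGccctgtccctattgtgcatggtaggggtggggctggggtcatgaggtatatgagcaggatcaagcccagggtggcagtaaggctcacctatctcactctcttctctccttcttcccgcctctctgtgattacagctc

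For contrast, windows are shown for 2 of the 4 tested members with one that were not lower with GR24. The others, *Des* and *Tpm3*, hold CAGCTG but neither a CArG nor a MEF2 match. *Actn3*, at chr1:211604352-211604651 on the minus strand, holds neither a CArG nor a MEF2 match. *Klhl40*, at chr8:130318543-130318842 on the plus strand, holds a MEF2 match, in capitals.
Actn3: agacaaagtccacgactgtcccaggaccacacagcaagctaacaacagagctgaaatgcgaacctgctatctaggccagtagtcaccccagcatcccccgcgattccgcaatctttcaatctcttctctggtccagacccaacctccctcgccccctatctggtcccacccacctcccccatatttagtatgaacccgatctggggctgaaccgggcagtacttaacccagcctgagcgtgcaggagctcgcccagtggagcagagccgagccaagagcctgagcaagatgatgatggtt
Klhl40: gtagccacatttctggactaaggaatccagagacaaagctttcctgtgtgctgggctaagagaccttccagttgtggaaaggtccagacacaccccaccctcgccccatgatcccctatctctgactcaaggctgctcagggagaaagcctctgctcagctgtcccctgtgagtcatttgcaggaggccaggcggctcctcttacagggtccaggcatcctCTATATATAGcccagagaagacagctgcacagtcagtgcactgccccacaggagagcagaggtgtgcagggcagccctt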

How the data were processed

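RNA of 12 cultures was measured on 12 Agilent 1-colour arrays (1 culture each, none pooled). The authors deposited scanner output with processed signal in units of intensity, background subtracted within the array and not normalized between arrays, and median spot and background signal, also intensity. A table of log2 values that the authors normalized was also deposited, and its background correction, normalization and filter are not stated. Of 45598 probes, 24279 were tested, which at least 1 group had well above background on each of its 3 arrays, and 87.4% of these were well above background on all 12. Outlier spots were dropped, and spots of the same probe averaged. RefSeq accessions matched to a GRCr8 gene table named 21109 probes (46.3%).

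Each array was scaled to its 75th percentile over probes. limma 3.58.1 in R 4.3.3 fitted a mean per group over 12 arrays, with eBayes, and p was adjusted over the tested probes by Benjamini-Hochberg. The procedure was tested on simulated data with independent noise on each array and few changed probes. That simulation does not cover deviations shared within an experiment, the scaling, or changes in many probes. A gene stands as its probe with the highest mean. Genes with full values are, among those past the threshold without overlap, the 10 largest changes each way with GR24 and 5 in other comparisons, and further the extremes of each role, and *Myh3*, *Myh8*, *Des*, *Acta1* and *Actc1*. *Ttn* was also chosen but has no probe. From the list of other sarcomere genes and the marker lists, the 3 largest each way past the threshold were named. Any other value of a member was chosen for the text after values were seen. Members and lists were chosen with earlier results of these data known. The 9 lists were other sarcomere genes, non-muscle cytoskeleton, smooth muscle contractile genes, and markers of myotubes, undifferentiated myoblasts, fibroblasts, cardiomyocytes, adipocytes and endothelium.

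Arrays with 1 replicate number were taken to come from 1 of the 3 experiments, a link the record leaves unstated. Over 24263 probes, the 18 correlations between groups of deviations from the group mean, at the same replicate number, were 0.191 to 0.744, all above 0.1, so the experiment was also fitted as a block. The text names each member whose call this changed. Replicates 1 and 2 shared 1 slide and replicate 3 was on another. Alternatives were quantile normalization, normexp (offset 50, on median signals) with either scaling, the series table, leaving dim probes in, a stricter filter on all 12 arrays, only the 6 arrays compared, the experiment or slide as a block, slide 1 alone, a trend with robust eBayes, a mean of each gene's probes, outlier spots kept, adjustment over 6 comparisons together, and leaving out each array. The percentile over spots and the medians of slide 2 were chosen after seeing the data.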

Additional observations from a re-analysis of the deposited data

How the results depend on the processing

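With GR24 the count of lower members was 37 to 39 in all alternatives, and the counts that differed between compounds were 39 to 43 (GR24 against pinosylvin or resveratrol) and 23 to 35 (pinosylvin against resveratrol). Members higher with GR24 numbered 2 with the experiment as a block, the slide as a block or the percentile over spots, and 1 to 2 on leaving out single arrays. With pinosylvin, lower members were 3 with no filter and 3 with only the 6 arrays (2 to 7 on leaving out single arrays, 7 without control replicate 3), and higher members 7 and 6 (7 to 11). With resveratrol, lower members were 13 in both of these settings (13 to 23), and higher members 1 with either block (0 to 0 on leaving out single arrays). Medians moved by more than the replicate spread with normexp and quantile normalization, to -1.46 (GR24 against control), -1.47 (against pinosylvin), -1.07 (against resveratrol) and 0.30 (pinosylvin against resveratrol). They moved to -1.45 and -1.11 with the series table for GR24 against pinosylvin and resveratrol, and to -1.12 with normexp at the 75th percentile for the latter. Signs that turned were all of members that missed the threshold, 2 with GR24, 9 with pinosylvin, 4 with resveratrol and 4 between the stilbenes. Among them were the log2 differences from control of *Tpm3* with GR24 (0.02 over spots, -0.154 to 0.005 on leaving out single arrays), *Des* with GR24 (0.011 over spots, -0.185 to 0.006), *Myh3* with pinosylvin (-0.027, quantile) and *Acta1* with pinosylvin (-0.027 quantile, -0.021 normexp with quantile, -0.008 series table, -0.026 slide 1, -0.064 to 0.05 on leaving out single arrays). Among named members 94 calls were lost and 40 gained over all settings and comparisons, with the direction kept. The experiment as a block ended no call of a member, and the calls it added are named in the text. The percentile over spots shifted the median of all probes by 0.10 (GR24 against control) and 0.11 (GR24 against resveratrol), and moved the share of higher calls in the latter by 10.7 points, to 64.1%. Causes of these shifts were not tested. Signal close to background limits *Myl3*, *Mylk2* and the bounds, and 3 arrays a group limit the small changes with pinosylvin and resveratrol.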

Other observations

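Probes of 1 gene can read different transcripts. *Tpm3* has 7 probes, of which 4 were tested, and their log2 fold changes with GR24 were -0.08, 0.56 (adjusted p 0.000363), -0.52 (adjusted p 0.00455) and 0.00. With pinosylvin the same 4 gave -0.39, -0.43, -0.09 and -0.42. For GR24 directly against pinosylvin they gave 0.31, 0.99 (adjusted p 6.39e-06), -0.425 (adjusted p 0.0135) and 0.42 (adjusted p 0.000709). For GR24 against resveratrol they gave 0.27, 0.92 (adjusted p 1.41e-05), -0.09 (adjusted p 0.586) and 0.20 (adjusted p 0.0467). *Tpm1* has 4 tested probes, all lower with GR24 (log2 -1.38 to -1.01). Among them 1 probe was lower with pinosylvin (log2 -0.41, adjusted p 0.00802) and higher with resveratrol (log2 0.34, adjusted p 0.0203). The other probes differed from control by -0.01 to 0.00 with pinosylvin and 0.08 to 0.13 with resveratrol. Between the stilbenes the former was lower with pinosylvin (log2 -0.75, adjusted p 0.000301), and the others gave -0.13 to -0.08. The probes of both *Csrp3* and *Ldb3* gave like values with GR24, -0.71 and -0.65 for *Csrp3* and -2.88 and -2.94 for *Ldb3*. With resveratrol those of *Csrp3* gave -1.03 each, while those of *Ldb3* gave -0.14 and -0.36 (adjusted p 0.249 and 0.0135). Which transcripts each probe reads was not tested.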
